A study of Mus musculus with 25 samples.

Results

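A group of 10 transcription regulators of totipotency and pluripotency were followed through a set of mouse 2-cell embryos. The members are the genes Nr5a2, Klf17, Klf5, Klf4, Tfap2c, Pou5f1, Nanog, Sox2, Dppa2 and Dppa4, which were chosen by name and found by their Ensembl identifiers. All 10 were found among the 55375 genes of the count table, all lie on autosomes, and all 10 passed the filter of a mean of at least 1 read.

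RNA was measured in 25 libraries of 11 groups, each library made from 5 to 10 wild-type embryos collected at 28 to 29 h after insemination or activation. The IVF embryos (4 libraries) came from C57BL/6N oocytes and DBA2 sperm. In somatic cell nuclear transfer (SCNT) the nucleus of a cumulus cell, here from BDF1 (C57BL/6N x DBA2) females, is placed in an enucleated BDF1 oocyte, so the SCNT embryos had female donors and BDF1 oocytes. The labels put the C57BL/6N females at 4 to 20 weeks of age. The study's methods give a narrower range for the parents of the IVF embryos. Embryos made in cytochalasin B, which blocks actin during enucleation and activation, received no mRNA (SCNT control, 2 libraries) or 10 pL of mouse Kdm3a or Kdm4d mRNA at 1500 ng/uL (2 libraries each). Both mRNAs encode histone H3K9 demethylases. Embryos made in latrunculin A (LatA), another actin inhibitor, received nothing (LatA control, 2 libraries), the histone deacetylase inhibitor trichostatin A (TSA) at 25 nM for 8 h (2), a G9a inhibitor (G9ai) at 1 uM for 24 h, which was RK-701 (3) or A366 (2), or TSA together with RK-701, A366 or UNC0638 (2 each). G9a writes H3K9 mono- and dimethylation. UNC0638 alone was not analysed here. The labels give pools of embryos and number the libraries, but do not say whether pools of 1 number share a day, so p values measure the spread between these pools.

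Reads on genes ranged from 6662727 to 21188688 per library. The injected genes matched their labels: Kdm3a lay at 3116 to 3465 CPM (read counts relative to library size, scaled by the TMM factors of edgeR) in the Kdm3a group and at 108.5 to 266.5 CPM in the other 23 libraries, and Kdm4d at 12540 to 18540 CPM in the Kdm4d group and 0.718 to 5.08 CPM elsewhere. Of the 10 markers of 2-cell embryos, 9 reached 1 CPM in some library, and their summed level was 261 to 1574 CPM. Of the 12 cumulus cell markers, Amh, Foxl2 and Inha stayed under 1 CPM in every library. The others reached it in some library, and Amhr2 was the highest, with a mean of 30.3 CPM in IVF. All comparisons with IVF share the same 4 libraries, and all comparisons with an untreated SCNT control share the 2 libraries of that control, so these comparisons are not independent of each other.

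Nr5a2 is an orphan nuclear receptor that opens chromatin at genome activation, Klf4, Klf5 and Klf17 are Krüppel-like zinc finger factors that bind GC-rich and CACCC sequences, and Tfap2c is an AP-2 factor of the trophectoderm and the germ line. Pou5f1 (Oct4), Nanog and Sox2 form the core of the pluripotency network, whose zygotic expression becomes prominent after the 2-cell stage. Dppa2 and Dppa4 are SAP domain proteins that act as a pair and promote the expression of Dux and the 2-cell programme.

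The promoter windows of RefSeq (GRCm38.p6) covered 6 of the 10 members, with 9 start sites. Klf5, Tfap2c, Dppa2 and Dppa4 had none. A set of 4 windows of 250 bases, each ending just before the start that RefSeq gives, is shown, written 5′ to 3′ on the strand of the gene, because they belong to Klf17 and Klf4, whose levels differed in opposite directions between the G9ai, and to the core factors Sox2 and Pou5f1, each of which gave a call against IVF. Capitals mark CCAAT, the CACCC motif (CCACCC) and the GC box (GGGCGG), searched on both strands, so that reverse complements are in capitals too.
Klf17 (chr4:117765667-117765916, minus strand): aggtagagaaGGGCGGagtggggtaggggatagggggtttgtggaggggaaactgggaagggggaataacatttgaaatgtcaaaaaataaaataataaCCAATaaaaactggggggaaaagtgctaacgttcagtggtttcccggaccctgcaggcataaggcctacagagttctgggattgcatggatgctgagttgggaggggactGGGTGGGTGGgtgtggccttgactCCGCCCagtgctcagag
Klf4 (chr4:55532476-55532725, minus strand): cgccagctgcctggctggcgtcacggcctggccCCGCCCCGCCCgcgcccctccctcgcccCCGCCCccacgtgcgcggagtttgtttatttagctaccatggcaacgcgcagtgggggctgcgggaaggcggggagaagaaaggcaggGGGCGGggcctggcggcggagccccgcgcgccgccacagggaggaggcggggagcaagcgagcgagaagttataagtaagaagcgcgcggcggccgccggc
Sox2 (chr3:34649745-34649994, plus strand): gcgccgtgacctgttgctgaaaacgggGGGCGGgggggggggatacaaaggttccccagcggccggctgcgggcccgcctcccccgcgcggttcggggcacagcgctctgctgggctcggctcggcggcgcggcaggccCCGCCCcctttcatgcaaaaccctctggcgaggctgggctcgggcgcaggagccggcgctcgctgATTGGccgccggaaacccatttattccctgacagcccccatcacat
Pou5f1 (chr17:35505782-35506031, plus strand): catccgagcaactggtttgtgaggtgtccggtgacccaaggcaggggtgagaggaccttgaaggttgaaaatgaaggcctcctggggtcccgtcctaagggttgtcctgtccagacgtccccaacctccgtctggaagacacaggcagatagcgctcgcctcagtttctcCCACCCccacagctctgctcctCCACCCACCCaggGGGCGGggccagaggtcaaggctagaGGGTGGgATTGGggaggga
The Klf4 and Sox2 windows were rich in CpG dinucleotides, with 32 and 27 of them and a GC content of 74% and 72%, where the median of all windows was 6 CpG and 52.4%. Klf17 had 4 CpG and 52% GC, and Pou5f1 had 8 and 62%. The 2 Nr5a2 windows held 2 and 6 CpG. Of all 32851 windows 33.8% held CCAAT, 28.1% the CACCC motif and 32.7% the GC box. The Klf17 window held all 3 motifs, and the 2 CACCC matches in it overlap. The Klf4 window held 4 GC boxes, of which 2 overlap by 1 base, and neither other motif. The Pou5f1 octamer ATGCAAAT (1.6% of windows) and the nuclear receptor half-site AAGGTCA (4.08%), also searched on both strands, were in none of the 9 windows. A match is a string of letters and does not show binding.

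In IVF embryos the Dppa pair and the Klf factors were abundant and the core pluripotency factors were the lowest of the 10 members. On the TPM scale (counts divided by gene length, then set relative to their sum over autosomal genes), the mean over 4 libraries was 996 for Dppa4, 652 for Dppa2, 235 for Klf17, 106 for Klf5, 75.7 for Klf4, 54.1 for Nr5a2, 35.7 for Tfap2c, 7.92 for Pou5f1, 7.48 for Sox2 and 1.73 for Nanog. Dppa4 was above 99.6% of the tested genes, Pou5f1 above 65.5%, Sox2 above 64.7% and Nanog above 42.8%. The members thus ran from among the most abundant messages of the embryo to below the median gene.

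**Figure D1:**
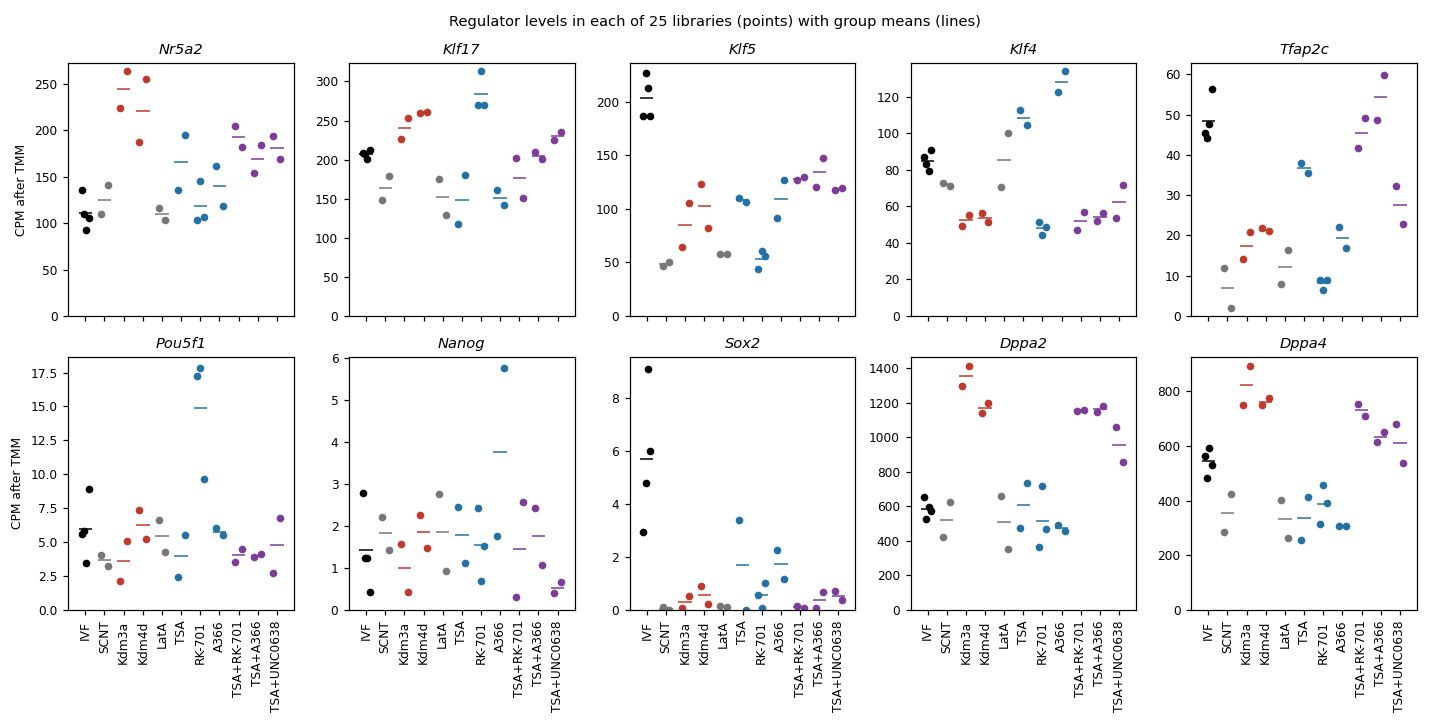
CPM after TMM (vertical axes from 0, a scale for each gene) of the 10 members in each of the 25 libraries (points) with group means (lines), for IVF (black), untreated SCNT controls (grey), Kdm mRNA (red), single agents (blue) and TSA with a G9ai (purple). Klf5 was higher in every IVF library than in any SCNT library, Dppa2 lay at 854.9 to 1413 CPM in the 10 libraries with Kdm mRNA or co-treatment and at 737.1 CPM or less in the others, and the 3 RK-701 libraries had the highest Pou5f1 levels.

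Untreated SCNT embryos held less Klf5, Tfap2c and Sox2 RNA than IVF embryos, while the estimates for the other 7 members were under 2-fold. A gene was called changed where the edgeR quasi-likelihood test, fitted to all genes and all 25 libraries, gave a Benjamini-Hochberg adjusted p under 0.05 and a fold change over 2. By this rule 3 of the 10 members were lower and 0 higher in the SCNT control, where 15% of the 25794 tested genes were called in either direction, and the same 3 were lower in the LatA control, where 15.3% were called. The median log2 fold change of the members was -0.48 and -0.33, against 0.01 and 0.04 for all tested genes.

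Klf5 lay at 187, 227, 213 and 187 CPM in the IVF libraries, at 47.1 and 50.5 CPM in the SCNT control and at 57.5 and 57.5 CPM in the LatA control. The lowest IVF library was thus above every control library. The log2 fold change was -2.06 ± 0.22 (SE) in the SCNT control (edgeR adjusted p = 1.06e-07) and -1.82 ± 0.21 in the LatA control (adjusted p = 6.51e-07). Klf5 promotes the trophectoderm as well as pluripotency in the early embryo.

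Tfap2c showed a larger fall with more spread. Its levels were 45.4, 44.1, 47.6 and 56.5 CPM in IVF, 11.9 and 2.07 CPM in the SCNT control, and 7.82 and 16.4 CPM in the LatA control. The groups did not overlap, but the 2 SCNT control libraries differed by more than 5-fold. The log2 fold change was -2.81 ± 0.42 (adjusted p = 1.72e-05) and -2.02 ± 0.39 (adjusted p = 0.000424).

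Sox2 was close to undetected after SCNT. The 4 IVF libraries held 19, 77, 140 and 86 reads, the 2 SCNT control libraries 1 and 0, and the 2 LatA control libraries 3 and 1. Pooled over libraries and scaled by effective library size, the IVF level was 141 times that of the SCNT control (95% exact interval of the counts 25.1 to 5577) and 44.9 times that of the LatA control (17.4 to 166). These intervals cover counting error only. The Sox2 call was lost without the second SCNT control library or without the second LatA control library.

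Dppa4 missed the fold threshold. It lay at 564, 483, 593 and 531 CPM in IVF, at 284 and 425 CPM in the SCNT control and at 403 and 263 CPM in the LatA control, without overlap, and its log2 fold change was -0.62 ± 0.20 (adjusted p = 0.028) and -0.70 ± 0.20 (adjusted p = 0.0123). With libraries scaled by TPM it was -0.38 and -0.41 (edgeR adjusted p = 0.102 and 0.0771). With total count scaling Dppa4 showed -0.43 and -0.46 (adjusted p = 0.0997 and 0.0727). Its partner Dppa2 showed -0.17 (95% interval -0.64 to 0.30) and -0.21 (-0.68 to 0.26). Nr5a2 showed 0.18 (-0.22 to 0.59) and -0.01 (-0.42 to 0.40), and Klf4 -0.24 (-0.59 to 0.11) and 0.00 (-0.34 to 0.35). Klf17 at -0.34 and -0.45, Pou5f1 at -0.70 and -0.12 and Nanog at 0.42 and 0.46 were not called.

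The summed levels of the oocyte, 2-cell and trophectoderm marker lists moved with this comparison. The oocyte list (all 8 found, none at 0) had a summed level of 1290 to 1523 CPM in IVF, 637 to 682 CPM in the SCNT control and 552 to 651 CPM in the LatA control. The sum rests in large part on Oosp1, with means of 755 CPM in IVF, 309 CPM in the SCNT control and 227 CPM in the LatA control. Not all of the list was lower: in the same order Npm2 had means of 56.7, 61.3 and 53.4 CPM and Mos of 2.57, 3.77 and 6.21 CPM, and for both genes the libraries of IVF and of each control overlapped. The 2-cell list summed to 873 to 1194 CPM in IVF, 707 to 831 CPM in the SCNT control and 432 to 595 CPM in the LatA control. Its most abundant gene, Zfp352, went against this sum in the SCNT control, with means of 303, 447 and 236 CPM in the same order. The trophectoderm list (6 genes, Cdx2 and Elf5 under 1 CPM in every library) summed to 8.14 to 12.8, 23.0 to 24.4 and 14.6 to 19.5 CPM. Within it Krt18 had means of 4.01, 10.5 and 7.11 CPM, but Eomes was lower on average in the controls, at 2.08, 0.14 and 0.56 CPM. The cumulus list was at 37.3 to 47.6 CPM in IVF, 43.1 to 56.4 CPM in the SCNT control and 44.9 to 47.2 CPM in the LatA control. Most of it was Amhr2, with means of 30.3, 30.3 and 27.7 CPM in the same order. Fst had means of 0.016, 5.90 and 5.62 CPM, with 0 to 11.2 CPM in the LatA control, and Ptgs2 of 2.79, 1.15 and 4.93 CPM. The part of these lists in the differences of the members was not tested, and a lower RNA content cannot be told apart from fewer expressing cells. The 2 controls differed in 0 members by edgeR, with 0 members at an unadjusted p under 0.05 and 0 by DESeq2, where 0.0116% of all genes were called. For Dppa2 the interval of LatA control minus SCNT control was -0.57 to 0.50 on the log2 scale.

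Klf5, Tfap2c and Sox2 were also the members called lower than IVF in treated groups, and Nr5a2, Dppa2 and Pou5f1 were those called higher. With Kdm3a mRNA 5 of the 10 members were called (2 higher, 3 lower), where 12.8% of tested genes were called, and with Kdm4d mRNA 2 (1 higher, 1 lower), where 9.31% were called. With RK-701 4 were called (1 higher, 3 lower; 11.8% of genes), with A366 1 lower (15.2%), with TSA and RK-701 1 lower (12.2%) and with TSA and A366 1 lower (10.9%). With TSA alone (14.9%) and with TSA and UNC0638 (9.84%) edgeR called 0 members, 5 and 6 had an unadjusted p under 0.05, and DESeq2 called 0 and 1. Klf4 was not called against IVF, where it lay at 79.2 to 90.8 CPM. All libraries with Kdm mRNA or co-treatment (47.2 to 71.4 CPM) and RK-701 alone (44.4 to 51.6 CPM) were below that. Those with TSA alone (104 to 112 CPM) and A366 alone (123 to 134 CPM) were above it. Klf17, also uncalled, was above every IVF library (200 to 213 CPM) with RK-701 alone (270 to 314 CPM). It was also above them with either Kdm mRNA or TSA with UNC0638, and below them with TSA or A366 alone.

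Klf5 was below IVF in all 10 SCNT groups, between -2.06 and -0.60 on the log2 scale, each with an edgeR adjusted p of at most 0.0383, and no SCNT library reached the lowest IVF library (the highest held 148 CPM). It was called in the 2 controls and with RK-701 and Kdm3a mRNA. Under RK-701 it lay at 44.2, 60.5 and 55.9 CPM, which overlaps both controls, and the log2 fold change to IVF was -1.93 ± 0.18 (adjusted p = 1.83e-08). With Kdm3a mRNA, at 64.1 and 105 CPM, it was -1.27 ± 0.21 (adjusted p = 6.19e-05), and -0.95 and uncalled without the first of these libraries. With Kdm4d mRNA it was -0.99 with TMM and missed the fold threshold. Other scalings gave a call for Klf5 with Kdm4d mRNA. The log2 fold change was -1.06 with RLE factors (edgeR adjusted p = 0.0007). It was -1.14 with libraries scaled by TPM (adjusted p = 0.0004) and -1.06 with total count scaling (adjusted p = 0.0006). The missing call therefore does not separate Kdm4d from Kdm3a mRNA for Klf5.

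Tfap2c ranged from the level of the controls to that of IVF. With RK-701 it lay at 8.88, 6.52 and 8.85 CPM (-2.58 ± 0.35 against IVF, adjusted p = 3.77e-06), with A366 at 22.1 and 16.9 CPM (-1.32 ± 0.37, adjusted p = 0.0115), with Kdm3a mRNA at 14.0 and 20.9 CPM (-1.48 ± 0.38, adjusted p = 0.00606) and with Kdm4d mRNA at 21.9 and 21.0 CPM (-1.17 ± 0.37, adjusted p = 0.0318). With TSA and A366 it lay at 48.8 and 59.9 CPM and with TSA and RK-701 at 41.7 and 49.2 CPM, and the libraries overlapped with IVF. The log2 fold changes of these co-treatments to IVF were 0.17 (95% interval -0.54 to 0.88) and -0.09 (-0.81 to 0.63). The calls with A366 and with Kdm mRNA were lost without single libraries: for Kdm3a mRNA without its first library (-1.21), for A366 without its second (-1.19) and for Kdm4d mRNA without either of its libraries or IVF library 4 (-1.20 to -1.09).

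Sox2 reached 11 reads at most in the 10 libraries with Kdm mRNA or co-treatment. Called lower than IVF were Kdm3a mRNA (7 reads in 2 libraries), RK-701 (22 in 3 libraries), TSA with RK-701 (3 in 2 libraries) and TSA with A366 (11 in 2 libraries), and the IVF level was 27.1, 11.1, 56.0 and 16.1 times theirs, with counting intervals of 12.99 to 67.9, 7.20 to 17.96, 18.98 to 273 and 8.88 to 32.6. With TSA alone 1 library held 40 reads and the other 0, and with A366 alone the libraries held 27 and 17. These 2 groups were not called (adjusted p = 0.241 and 0.246). Kdm4d mRNA and TSA with UNC0638, with 14 reads in 2 libraries each, were not called either. The IVF level was 11.7 and 11.6 times theirs, with counting intervals of 6.88 to 21.7 and 6.80 to 21.4. For Kdm4d mRNA this was at the threshold. The edgeR adjusted p was 0.0497 with RLE factors and 0.0496 with libraries scaled by TPM, which gave a call, and 0.0514 with total count scaling. Each of the 4 Sox2 calls was lost without some library, namely the first for Kdm3a mRNA, the first or the second for RK-701, either for both co-treatments, and IVF library 3 for RK-701 and for TSA with A366.

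Nr5a2 stood above IVF with Kdm mRNA. It lay at 136, 109, 92.1 and 105 CPM in IVF, at 224 and 264 CPM with Kdm3a mRNA and at 187 and 256 CPM with Kdm4d mRNA, without overlap. The log2 fold change was 1.14 ± 0.19 (adjusted p = 8.82e-05) and 1.00 ± 0.19 (adjusted p = 0.000606). The Kdm4d value was at the fold threshold and was under it (0.76 to 1.00) without the second Kdm4d library or without IVF library 2, 3 or 4. It was also under it with DESeq2, RLE factors, total count scaling and the replicate block (0.87 to 0.93), and under the TPM scaling both values were, at 0.98 with Kdm3a mRNA and 0.85 with Kdm4d mRNA. With TSA and RK-701 the libraries held 204 and 182 CPM, with TSA and A366 154 and 185 CPM and with TSA and UNC0638 194 and 169 CPM, which gave 0.81, 0.62 and 0.71, all with an adjusted p under 0.05 but under the fold threshold.

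Dppa2 was called higher than IVF with Kdm3a mRNA. The IVF libraries held 653, 525, 597 and 575 CPM and the Kdm3a libraries 1298 and 1413 CPM, a log2 fold change of 1.21 ± 0.22 (adjusted p = 0.000224). With Kdm4d mRNA (1141 and 1201 CPM), TSA with RK-701 (1153 and 1158 CPM) and TSA with A366 (1148 and 1183 CPM) it was 1.00, 0.98 and 0.99, which missed the fold threshold. No library of these 4 groups overlapped with IVF. Dppa4 was also above all IVF libraries (483 to 593 CPM) in each of these 4 groups, without a call. It held 751 to 894 CPM with Kdm3a mRNA and 748 to 777 CPM with Kdm4d mRNA. With TSA and RK-701 it held 710 to 755 CPM and with TSA and A366 615 to 649 CPM. The Kdm3a value was 0.60 ± 0.19 (adjusted p = 0.0271), under the fold threshold, and 0.44 with libraries scaled by TPM (edgeR adjusted p = 0.0582).

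Pou5f1 was called higher than IVF with RK-701 alone. The RK-701 libraries held 17.3, 17.9 and 9.62 CPM and the IVF libraries 5.58, 5.84, 3.44 and 8.92 CPM, so that the lowest RK-701 library was just above the highest IVF library. The log2 fold change was 1.33 ± 0.38 (adjusted p = 0.0127), and the call was lost without the first or second RK-701 library or IVF library 3 (1.13 to 1.21). All other 18 SCNT libraries held 2.15 to 7.34 CPM. Of the 2042 exon bases of Pou5f1 291 overlap the gene Gm19553 on the opposite strand, and pairs on shared bases were not counted, so its level is uncertain by that part.

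**Figure D2:**
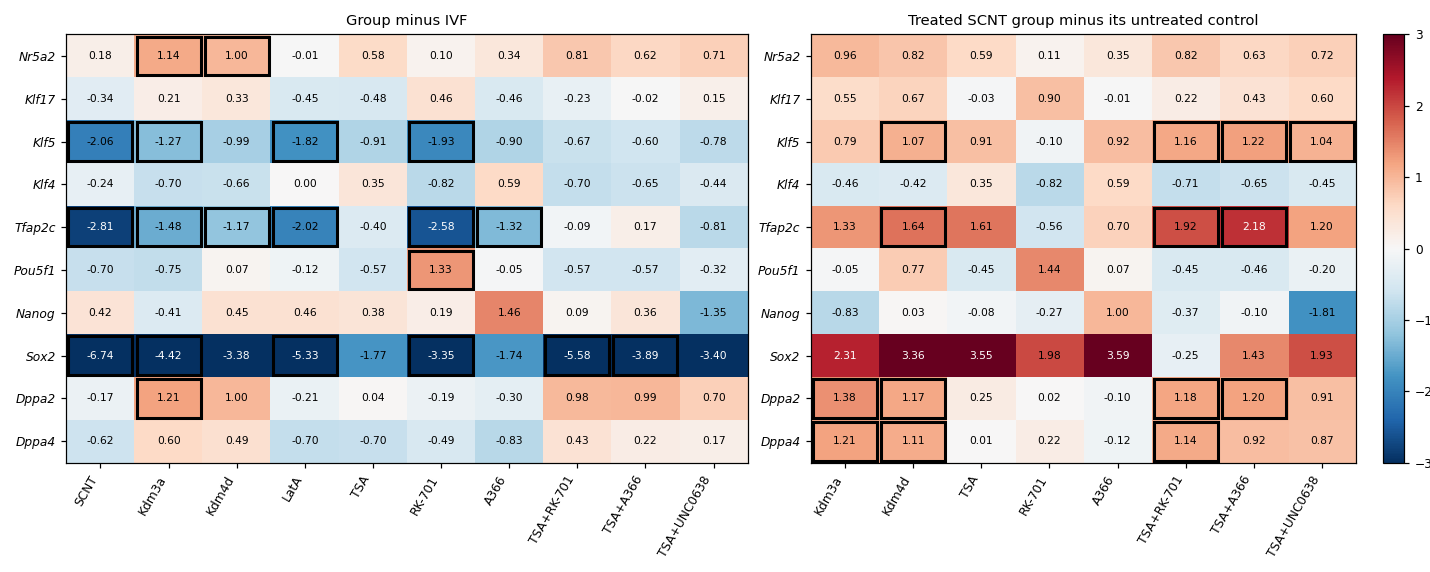
Log2 fold changes of the 10 members (rows) in each SCNT group against IVF (left) and in each treated group against its untreated control (right), printed in each cell, with colour limited to 3 in either direction and called changes framed. Klf5 and Sox2 have negative values against IVF in every column, and every framed cell on the right is positive with TMM, where the TPM scaling also calls Klf4 lower with TSA and RK-701 or A366.

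Kdm mRNA raised the Dppa pair above the SCNT control. With Kdm3a mRNA 2 of the 10 members were higher and 0 lower, where 4.16% of tested genes were called, and with Kdm4d mRNA 4 were higher and 0 lower, where 3.14% were called. The median log2 fold change of the members was 0.88 and 0.95, against -0.04 and -0.04 for all tested genes. Both comparisons share the 2 SCNT control libraries.

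The SCNT control held 421 and 623 CPM of Dppa2 and 284 and 425 CPM of Dppa4. With Kdm3a mRNA Dppa4 lay at 751 and 894 CPM, and the log2 fold changes were 1.38 ± 0.27 for Dppa2 (adjusted p = 0.00221) and 1.21 ± 0.23 for Dppa4 (adjusted p = 0.00175). With Kdm4d mRNA Dppa4 lay at 748 and 777 CPM, and the changes were 1.17 ± 0.26 (adjusted p = 0.00995) and 1.11 ± 0.23 (adjusted p = 0.00513). All libraries with mRNA were above both controls. Without the first SCNT control library the Dppa2 and Dppa4 calls were lost in both groups, with log2 fold changes of 0.83 to 1.09, and those with Kdm4d mRNA also without the second Kdm4d library (1.13 and 1.08).

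With Kdm4d mRNA Klf5 and Tfap2c were also called higher. Klf5 lay at 123 and 81.7 CPM (1.07 ± 0.23, adjusted p = 0.00652) and Tfap2c at 21.9 and 21.0 CPM (1.64 ± 0.44, adjusted p = 0.0265). The Tfap2c call was lost without the second SCNT control library, which held 2.07 CPM, and the log2 fold change was then 0.85. It was also lost without either Kdm4d library (1.61 and 1.66), and the Klf5 call without the first SCNT control library or the first Kdm4d library (1.01 and 0.74). With the LatA control as the reference, and under the TPM and total count scalings, both calls were lost. The Klf5 call was also lost with DESeq2 and with RLE factors. With Kdm3a mRNA Klf5 showed 0.79 and Tfap2c 1.33 (adjusted p = 0.0669). Between the 2 mRNAs edgeR called 0 members, 0 had an unadjusted p under 0.05 and DESeq2 called 0, where 0.326% of genes were called. The interval of Kdm4d minus Kdm3a was -0.75 to 0.32 for Dppa2, -0.18 to 0.74 for Klf5 and -0.54 to 1.15 for Tfap2c.

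Nr5a2 with 0.96 ± 0.23 under Kdm3a mRNA and 0.82 ± 0.23 under Kdm4d mRNA passed the adjusted p but not the fold threshold. Klf17 with 226 and 254 CPM and with 260 and 261 CPM was above the 148 and 179 CPM of the SCNT control, by 0.55 and 0.67. Klf4 held 72.5 and 71.3 CPM in the SCNT control, 49.4 and 55.3 CPM with Kdm3a mRNA and 56.1 and 51.5 CPM with Kdm4d mRNA, without overlap, but the changes of -0.46 and -0.42 did not pass the test (adjusted p = 0.181 and 0.246). Under the TPM scaling they were -0.87 and -0.82 (adjusted p = 0.0144 and 0.0239) and under total count scaling -0.75 and -0.69 (adjusted p = 0.0273 and 0.0489), still without a call.

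Klf5 was called higher than in the LatA control in all 3 co-treatments, Tfap2c and Dppa2 in those with RK-701 and A366, and Dppa4 in that with RK-701. TSA with RK-701 had 4 members higher and 0 lower (6.19% of tested genes called), TSA with A366 3 and 0 (5.98%), and TSA with UNC0638 1 and 0 (6.21%). For the single agents TSA (0.318%), RK-701 (3.35%) and A366 (0.12%) edgeR called 0 members, DESeq2 called 1, 1 and 0, and 4, 3 and 3 members had an unadjusted p under 0.05. The absence of a call does not show that the agents left the members as they were.

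Whether Klf4 was called lower in the co-treatments depended on the scaling. Against 70.4 and 100.1 CPM in the LatA control it lay at 47.2 and 57.0 CPM with TSA and RK-701, at 51.9 and 56.4 CPM with TSA and A366 and at 53.4 and 71.4 CPM with TSA and UNC0638. The changes of -0.71 (adjusted p = 0.02) and -0.65 (adjusted p = 0.0334) with RK-701 and A366 passed the adjusted p but not the fold threshold, and -0.45 with UNC0638 did not pass (adjusted p = 0.163). Under the TPM scaling Klf4 was called lower with RK-701 (-1.158, adjusted p = 0.0015) and with A366 (-1.04, adjusted p = 0.003), so that 1 member was called higher, Tfap2c, and 1 lower in each, and with UNC0638 it showed -0.90. Under total count scaling it was called with RK-701 (-1.01, adjusted p = 0.0028).

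For Klf5 no co-treated library overlapped with the control. The LatA control held 57.5 and 57.5 CPM, TSA with RK-701 127 and 129 CPM, TSA with A366 121 and 148 CPM and TSA with UNC0638 117 and 120 CPM, and the log2 fold changes were 1.155 ± 0.23 (adjusted p = 0.00164), 1.22 ± 0.23 (adjusted p = 0.00118) and 1.04 ± 0.23 (adjusted p = 0.00402). Each of these calls was lost under the TPM and total count scalings. Those with RK-701 and UNC0638 were also lost in a fit of the compared libraries alone, and that with UNC0638 also with DESeq2 and RLE factors. TSA alone held 110 and 106 CPM and A366 alone 91.1 and 127 CPM, also without overlap with the control, but at 0.91 and 0.92 they were not called (adjusted p = 0.0708 and 0.0882).

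Tfap2c had the largest changes among the called members. Against 7.82 and 16.4 CPM in the LatA control, the log2 fold change was 2.18 ± 0.43 with TSA and A366 (adjusted p = 0.00165) and 1.92 ± 0.42 with TSA and RK-701 (adjusted p = 0.00395). TSA with UNC0638 (32.3 and 22.8 CPM) showed 1.20 and TSA alone (37.9 and 35.4 CPM) 1.61, with adjusted p = 0.072 and 0.0832. The call with TSA and RK-701 was lost without the first LatA control library (1.47). RK-701 alone showed -0.56 (95% interval -1.36 to 0.23).

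The 2 LatA control libraries spread widely for the Dppa pair. Dppa2 lay at 662 and 355 CPM in the LatA control and Dppa4 at 403 and 263 CPM. With TSA and RK-701 Dppa2 changed by 1.18 ± 0.26 (adjusted p = 0.00449) and Dppa4, at 755 and 710 CPM, by 1.14 ± 0.23 (adjusted p = 0.00185). With TSA and A366 Dppa2 changed by 1.20 ± 0.26 (adjusted p = 0.00448), and Dppa4, at 615 and 649 CPM, by 0.92 ± 0.23. With TSA and UNC0638 the changes were 0.91 for Dppa2 (1059 and 855 CPM) and 0.87 for Dppa4 (681 and 539 CPM), with an adjusted p under 0.05. The Dppa2 calls with TSA and RK-701 or A366 and the Dppa4 call with TSA and RK-701 were lost without the second LatA control library, at 0.80 to 0.86.

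With TSA, RK-701 and A366 alone Dppa2 showed 0.25 (95% interval -0.29 to 0.79), 0.02 (-0.47 to 0.51) and -0.10 (-0.63 to 0.44), and Dppa4 0.01 (-0.45 to 0.47), 0.22 (-0.21 to 0.64) and -0.12 (-0.59 to 0.34). The libraries of these 3 groups overlapped with the LatA control for both genes.

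Klf17 and Klf4 differed in opposite directions with RK-701 alone, without a call. Klf17 held 175 and 129 CPM in the LatA control and 270, 314 and 270 CPM with RK-701, and Klf4 70.4 and 100.1 CPM and then 51.6, 44.4 and 48.6 CPM. The groups did not overlap. The changes of 0.90 ± 0.18 (adjusted p = 0.00407) and -0.82 ± 0.18 (adjusted p = 0.00613) stayed under the fold threshold. Pou5f1 showed 1.44 ± 0.48 (adjusted p = 0.0731), from 6.62 and 4.28 CPM. In the same libraries the oocyte list summed to 1067 to 1318 CPM, against 552 to 651 CPM in the LatA control, and its part in the levels of Klf17 and Pou5f1 was not tested.

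These calls depended on the scaling between libraries. The ratio of the scaling that TPM implies (reads per base of gene length) to the TMM factor was 1.07 to 1.19 in the 10 libraries with Kdm mRNA or co-treatment, 1.02 to 1.07 in IVF and 0.788 to 0.947 in the other 11 SCNT libraries. Under the TPM scaling 2 of the 14 calls against an untreated control remained, both of Tfap2c with co-treatment, 11 kept an adjusted p under 0.05, and all 14 stayed positive, at 0.60 to 1.79 on the log2 scale. The same scaling lowered the median log2 fold change of all genes by 0.36 to 0.44 in the 5 comparisons. Relative to the median gene the 14 changes were 1.11 to 2.30 with TMM. Another scaling shifts the genes of a comparison by nearly the same amount, so this difference from the median gene hardly depends on the scaling by construction and does not tell which scaling is right. Of all called genes 57.2% were higher with Kdm3a mRNA, 66.9% with Kdm4d mRNA, 59.4% with TSA and RK-701, 51.1% with TSA and A366 and 59.2% with TSA and UNC0638 with TMM, and 16.2%, 16.8%, 12.02%, 15.2% and 16.6% with the TPM scaling.

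The design also allowed the co-treatment to be set against the sum of the separate changes of TSA and a G9ai. With A366 1 of the 10 members departed from the sum (0 above, 1 below), where 1.83% of tested genes did. Klf4 lay at 70.4 and 100.1 CPM in the LatA control, 112 and 104 CPM with TSA, 123 and 134 CPM with A366 and 51.9 and 56.4 CPM with both. The separate changes of 0.35 and 0.59 were not called. The interaction was -1.59 ± 0.28 on the log2 scale (adjusted p = 0.00448). In a fit of the compared libraries alone the departure was -1.59 with an adjusted p of 0.138. With RK-701 edgeR called 0 members, DESeq2 0, and 5 had an unadjusted p under 0.05, where 2.14% of genes were called.

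Dppa2 and Dppa4 lay above the sum in both co-treatments, at 0.91 ± 0.35 and 0.91 ± 0.30 with RK-701 and at 1.04 ± 0.37 and 1.04 ± 0.32 with A366, but the adjusted p was 0.194, 0.122, 0.142 and 0.0869. For Klf5 the interaction was 0.35 (95% interval -0.28 to 0.98) with RK-701 and -0.61 (-1.26 to 0.05) with A366. For Tfap2c it was 0.87 (-0.28 to 2.02) and -0.13 (-1.32 to 1.06). Both interactions share the LatA control and TSA libraries.

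**Figure D3:**
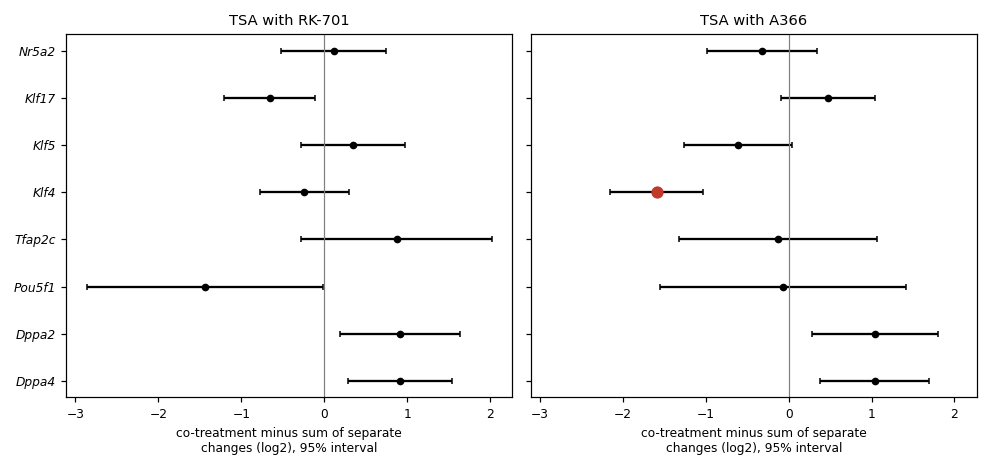
Departure of each co-treatment from the sum of the separate log2 fold changes (horizontal axis, log2, point with 95% interval) for the 8 members other than Nanog and Sox2, with RK-701 on the left and A366 on the right. Klf4 with A366 (red) is the called departure, at -1.59, and both Dppa genes are near 1 in both panels without a call.

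Among the members, RK-701 and A366 differed when given alone, and with TSA no pair of G9ai gave a called member. At 1 uM for 24 h, A366 gave higher levels than RK-701 for 3 of the 10 members and lower levels for 0, where 8.08% of tested genes were called. These were Klf4 (1.41 ± 0.18, adjusted p = 6.02e-06), Klf5 (1.03 ± 0.20, adjusted p = 0.00105) and Tfap2c (1.26 ± 0.38, adjusted p = 0.0255). The 2 A366 libraries lay above all 3 RK-701 libraries for each of them. Klf17 was lower with A366, at 161 and 141 CPM, by -0.91 ± 0.18 (adjusted p = 0.00119), under the fold threshold. The Tfap2c call was lost when any 1 of the 5 libraries was left out, with log2 fold changes of 1.04 to 1.38, and the Klf5 call without the second A366 library or the first RK-701 library, at 0.70 and 0.90.

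With TSA, edgeR and DESeq2 called 0 members in all 3 pairs of G9ai, where edgeR called 0%, 0.946% and 0.849% of all genes for A366 minus RK-701, UNC0638 minus RK-701 and UNC0638 minus A366. At an unadjusted p under 0.05 there were 0, 0 and 1 members. In the first pair DESeq2 also called 0 of all genes and 998 genes had an unadjusted p under 0.05. The intervals for A366 minus RK-701 with TSA were -0.35 to 0.46 for Klf4, -0.39 to 0.53 for Klf5 and -0.57 to 1.08 for Tfap2c. Tfap2c with UNC0638 was 0.98 lower than with A366 on the log2 scale (95% interval -1.82 to -0.14, adjusted p = 0.384).

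The balance within the Klf factors and within the Dppa pair varied with the groups. Klf17 made up the largest share of the summed TPM of Klf4, Klf5 and Klf17 in every group, with 56.3% ± 1.29 (SD, n = 4) in IVF, 81.9% ± 1.28 (n = 3) with RK-701 and 50.03% ± 5.27 (n = 2) with A366. Klf5 held 25.5% in IVF and 9.29% and 10.8% in the controls. Klf4 held 33.4% with A366, 30.5% with TSA and 13.8% with both.

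The ratio of Dppa2 to Dppa4 TPM was 0.654 ± 0.037 in IVF, where the 4 libraries ran from 0.608 to 0.699. It was above that in all 21 SCNT libraries, but the lowest RK-701 library, at 0.701, lay next to the highest IVF library. The group means of SCNT embryos ran from 0.790 with RK-701 to 1.11 with TSA and A366. This ratio does not depend on the scaling between libraries.

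**Figure D4:**
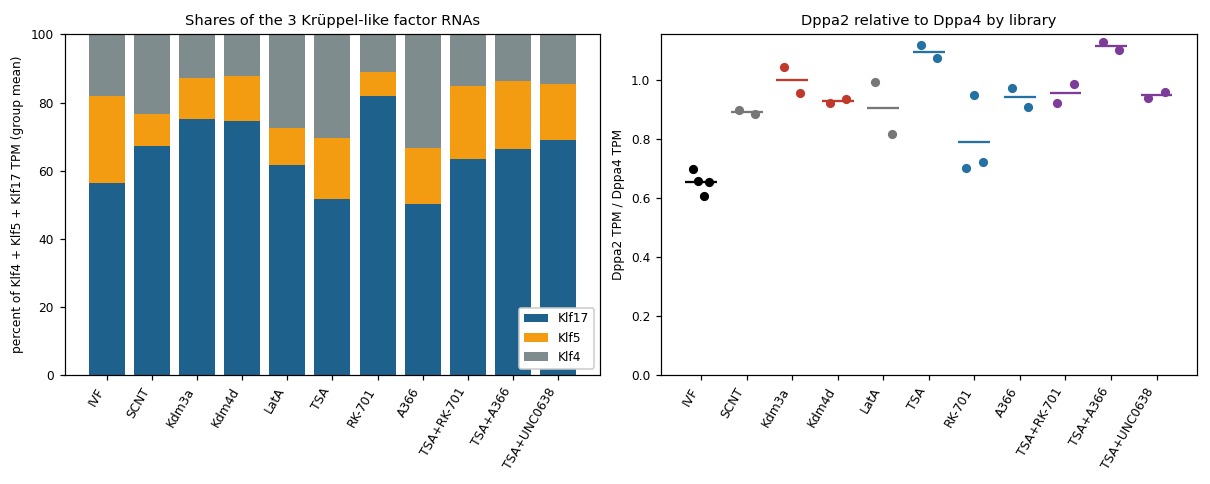
Left, the share of each factor in the summed TPM of Klf4, Klf5 and Klf17 (percent, stacked bars, group means), and right, the ratio of Dppa2 to Dppa4 TPM in each library (points, with group means as lines). Klf17 has the largest share in every group and reaches 81.9% with RK-701, and the IVF libraries have the lowest Dppa2 to Dppa4 ratios.

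Other regulators around these genes were called in the same comparisons, where 15% of all tested genes were called in the SCNT control and 15.3% in the LatA control. Whether the lists differ from these shares was not tested. Of 30 tested genes listed as relatives of the member families 6 were called in the SCNT control against IVF (4 higher, 2 lower) and 8 in the LatA control (7 higher, 1 lower). Dppa1, Dppa3 and Dppa5a are on this list by their names, which does not show a shared family. Of 14 naive pluripotency genes 6 (1 higher, 5 lower) and 4 (1 higher, 3 lower) were called. The T-box factor Tbx3, at -5.31 in the SCNT control and -4.73 in the LatA control, and the zinc finger factor Sall4, at -1.96 and -1.91, were lower in both. Klf2, another Krüppel-like factor, was higher in both (2.26 and 1.97). Of 17 genome activation factors 0 were higher and 2 lower in either control, and these were Gabpa (-2.09 and -2.13) and Sp1 (-1.20 and -1.05). Of 9 first lineage factors 3 were higher and 0 lower in either, among them Gata6 (2.08 and 2.07) and Tead2 (1.09 and 1.42).

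Sp1, Gabpa and Sall4 rose with Kdm mRNA and with each co-treatment. With Kdm3a mRNA they changed by 1.14, 1.28 and 1.13 against the SCNT control and with Kdm4d mRNA by 1.29, 1.19 and 1.30. Against the LatA control they changed by 1.164, 1.32 and 1.55 with TSA and RK-701, by 1.10, 1.28 and 1.37 with TSA and A366 and by 1.17, 1.58 and 1.47 with TSA and UNC0638. Among the genes listed as relatives 2 were higher and 4 lower with TSA and RK-701, where 6.19% of all tested genes were called. With TSA and A366 2 were higher and 2 lower, where 5.98% were called. With TSA and RK-701 Dppa5a (1.21) and Dppa3 (1.05), listed by name, rose and Klf6 fell most (-3.65). Over all comparisons of treated embryos with an untreated control, RK-701 alone included, 26 calls of the 4 lists were higher and 15 lower. Under the TPM scaling 6 of the 26 and 15 of the 15 were still called, and all 26 kept their sign. Sp1 and Gabpa then showed 0.75 and 0.89 with Kdm3a mRNA and 0.74 and 0.91 with TSA and RK-701.

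RK-701 alone changed 2 relatives, with Klf2 (-1.599) and Sox12 (-1.48) lower, 2 naive pluripotency genes, with Tcl1 (2.40) and Zfp42 (1.23) higher, and 1 activation factor, Rarg (-1.18), a retinoic acid receptor. Of all tested genes 3.35% were called with RK-701 alone. TSA alone and A366 alone gave 0 calls by edgeR in all 4 lists, where 0.318% and 0.12% of all tested genes were called. These lists were drawn up from textbook roles, with earlier results of these data known, and single calls are read against the percentages above.

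The genes most like each member over the 11 group means were named by Pearson r of log2(CPM + 1) among the 8171 genes with a mean of at least 10 CPM. For Nr5a2 these were Gm12346 (r = 0.971), Hnrnpa2b1 (0.954) and Pa2g4 (0.940), and for Klf17 Hmces (0.934), Noc3l (0.933) and Tcl1b2 (0.930). Cd3eap was among the first 3 for both Klf5 (0.968, after Tmem170 at 0.976 and before Brms1l at 0.938) and Tfap2c (0.970, before Cops7a at 0.961 and Mfsd14b at 0.960). Klf4 was followed by Slc16a1 (0.959), Ahdc1 (0.958) and Mvb12b (0.957), Dppa2 by Larp4 (0.980), Stk4 (0.976) and Zfp981 (0.975), and Dppa4 by Gm7868 (0.991), Eif4e (0.986) and Txndc9 (0.985). The group means share libraries and scaling, so the values only describe likeness. Pou5f1, Nanog and Sox2 were below 10 CPM and were not ranked.

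Nanog was near the limit of detection. It held 6 to 20 reads in the IVF libraries and 4 to 84 in the SCNT libraries, and the 2 A366 libraries held 1.76 and 5.76 CPM. No Nanog difference was called in any of the 26 comparisons, and the largest, -1.81 with TSA and UNC0638 against the LatA control, had a 95% interval of -3.83 to 0.21.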

How the data were processed

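Per the methods and file headers, the authors used Trimmomatic 0.36 to trim the SMART-Seq HT reads, STAR 2.7.5c to place them uniquely on mm10, and featureCounts 1.6.2 to count pairs without regard to strand. The deposited table holds raw read counts for 55375 genes and 1755056 repeat copies, and only the genes were used here. Pairs that touch more than 1 feature were left uncounted, and removal of duplicates is not stated.

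Counts were fitted with edgeR 4.0.16 (glmQLFit and glmQLFTest, R 4.3.3) in 1 model of the 11 groups, with TMM factors of 0.883 at the lowest and 1.16 at the highest. Tests covered 25794 genes, on autosomes and averaging 1 read or more, and a call needs a Benjamini-Hochberg adjusted p under 0.05 and a fold change over 2. The self-test on simulated counts of TSA with RK-701 against the LatA control (25794 genes) recovered 87 of 100 genes changed 4-fold. The changed genes were drawn from those above a minimum mean read count. The value therefore does not cover low counts such as those of Nanog and Sox2, nor changes near 2-fold. TPM was computed over autosomal genes with Python 3.11.15. Libraries with the same replicate number were not treated as pairs, and no 2 libraries of a group agreed within sampling noise. Alternatives were DESeq2 1.42.0, other scalings, filters, a replicate block, other libraries in the fit and leaving out each library. The members and lists were chosen with earlier results of these data known. The rule for named genes was all 10 members, up to 3 called regulators of a list in each direction, and the 3 most similar genes of each member above 10 CPM.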

Additional observations from a re-analysis of the deposited data

Results flagged for a closer look

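The departure of Klf4 in embryos given TSA and A366 from the sum of the separate changes was -1.59 on the log2 scale, since the effect of A366 with TSA differed from that without it by the interaction test (edgeR adjusted p = 0.00448). The effects of A366 and RK-701 given alone differed for Klf4 by 1.41, for Klf5 by 1.03 and for Tfap2c by 1.26, by the test of the difference itself. The Klf4 departure was not called in a fit of the compared libraries alone. Between A366 and RK-701, the Tfap2c call was lost without any 1 of the 5 libraries and the Klf5 call without either of 2 libraries. The Klf4 difference stayed called under every alternative.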

How the results depend on the processing

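Of 38 called member comparisons 0 reversed, 9 stayed called under every alternative, and 24 lost the call without some 1 library. The calls kept were 38 with no fold threshold, with every gene that had a read, with at least 10 reads required in 2 libraries, or with sex chromosomes included, 35 with RLE factors, 35 with DESeq2, 32 with the compared libraries only, 33 with a replicate block, 24 with the TPM scaling and 26 with total count scaling, the last pair of alternatives being chosen after seeing the data. With the other untreated control 12 of 14 were kept, and the calls of Klf5 and Tfap2c with Kdm4d mRNA were lost. Of 222 uncalled comparisons 84 changed sign under some alternative. The causes were not tested.

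The numbers of called members that moved by over 1.5 times were as follows, and smaller moves are not listed. With DESeq2 they were 1 for RK-701 and for TSA against the LatA control, 1 for TSA with UNC0638 against IVF and 2 for the A366 interaction. With RLE factors they were 1 and 0 for TSA with UNC0638 against IVF and LatA control. With the TPM scaling they were 0 for Kdm3a, Kdm4d and TSA with UNC0638 against their controls, 2 for TSA with RK-701 and 1 for TSA with UNC0638 against IVF, and with total count scaling 1, 0, 0 and 2 for the first 4 and 1 for TSA with A366. With the compared libraries only they were 2 for A366 and TSA with A366 and 1 for TSA with UNC0638 against IVF, 1 and 0 for TSA with RK-701 and UNC0638 against the LatA control, and 0 for the A366 interaction. With no filter they were 1 for TSA, 1 for RK-701 and 2 for TSA with UNC0638 against the LatA control, 1 for TSA with UNC0638 against IVF (also 1 with 10 reads), and 1 and 4 for the RK-701 and A366 interactions. With no fold threshold they were 4, 7, 5, 5, 5, 3 and 4 against IVF for A366, RK-701, TSA with A366, TSA with RK-701, Kdm4d, TSA with UNC0638 and TSA, and 2, 5, 4 and 4 against controls for RK-701, TSA with A366, TSA with UNC0638 and Kdm3a. With the other untreated control they were 1, 1, 2 and 2 for A366, RK-701, TSA with UNC0638 and TSA.

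With the replicate block the number of called members was 0 for A366, TSA with A366 and Kdm4d against IVF. Deviations of libraries with the same number correlated at -0.322 to 0.104, and the numbers were not taken as pairs. In a group of 2 libraries the deviations mirror each other, so this check cannot tell whether libraries share a day.

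Without each library in turn the number of called members ran over these ranges against IVF (2 to 3 SCNT control, 2 to 4 LatA control, 2 to 5 Kdm3a, 0 to 4 Kdm4d, 0 to 1 TSA, 2 to 4 RK-701, 1 to 1 A366, 0 to 2 both TSA with RK-701 and TSA with A366, 0 to 0 TSA with UNC0638). Against controls it was 1 to 4 for Kdm3a and Kdm4d, 0 to 1 for TSA, 0 to 2 for RK-701, 0 to 0 for A366, 2 to 4 for TSA with RK-701 and with A366, and 1 to 3 for TSA with UNC0638. It was 0 to 1 between the controls, 0 to 2 and 1 to 4 for the RK-701 and A366 interactions, 1 to 3 for A366 minus RK-701, and 0 to 0 for the other pairs of agents. A lone library left in a group was assumed to vary like the other groups.

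TPM levels were within 1 SD in 59 of 110 group means when all genes were used and in 107 when overlapped bases were left out of the length, and 7 of 21 similar genes were also in the first 3 by Spearman. Low depth limits Nanog and Sox2.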
